A study of Homo sapiens with 4 samples.

Results

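Chemokines and their receptors were described here as 58 genes out of 18377 measured, 37 of them ligands and 21 receptors. A gene was a member if a probe set on the array was annotated with exactly 1 symbol of the CCL, CXCL, CX3CL, XCL, CCR, CXCR, CX3CR, XCR or ACKR series, and a gene with several such probe sets was represented by the one with the highest mean log2 intensity. The rule used no difference between treatments. The RNA on the 4 Affymetrix arrays came from MOLM-14, a long-established cell line grown from an acute myeloid leukemia of monocytic type. The cells of 2 arrays had received DZNep at 2 µM for 24 h, and those of the other 2 arrays the solvent DMSO for the same time. DZNep, 3-deazaneplanocin A, blocks S-adenosylhomocysteine hydrolase and is used to deplete the histone methyltransferase EZH2. The labels call the samples of each treatment biological replicates but do not tell whether each was its own culture, and p-values reflect the spread between these arrays alone, which could be technical.

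Chemokines are small secreted proteins that steer the movement of leukocytes, and they are grouped by the spacing of their first cysteines into CC, CXC, CX3C and XC ligands. They act on receptors coupled to inhibitory G proteins, while the atypical receptors of the ACKR series bind ligands without that coupling and mostly remove them. Monocytic cells are known both as sources of inflammatory ligands such as CCL3 and CXCL8 and as responders through CCR1, CCR2 and CX3CR1, and CXCR4 is known for holding leukemia cells in the bone marrow.

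Every value below is a log2 intensity as summarised by the authors with RMA, and a fold change is DZNep over DMSO. Over all probe sets the arrays had median log2 intensities of 7.05 to 7.08 with DZNep and 6.99 to 7.07 with DMSO, DMSO replicate 1 being the lowest. The SD of the log2 difference between the 2 arrays of a treatment, over all genes, was 0.14 for DZNep and 0.20 for DMSO. Of 9 monocytic leukemia markers measured, LYZ and FLT3 were in the brightest 1% of genes, at the 99.8 and 99.2 percentile of mean log2 intensity, and CD14 was at the 36.9 percentile. Of 18 markers measured for T and NK, B, erythroid, megakaryocytic, endothelial or fibroblast cells, 15 lay below the median brightness of all genes, from the 7.9 percentile for the B cell marker MS4A1 to the 46.5 for the T cell marker CD8A. The 3 above it were NKG7, a granule protein of cytotoxic cells (93.4), the collagen gene COL1A1 (58.7) and the B cell factor PAX5 (54.7). None of these 18 was called by limma, and 0 of them had an unadjusted p under 0.05. Of the 9 monocytic markers, 3 were called (33.3%, against 10.3% of all genes). FLT3 fell by 0.94 on the log2 scale, while LYZ rose by 0.53 and CSF1R by 0.47. The call ended without DZNep replicate 1 for LYZ (0.48) and without DZNep replicate 1 (0.46) or 2 (0.47) for CSF1R. The markers not called went both ways, with CD14 (0.33), CD4 (0.31) and SPI1 (0.06) above 0. CD68 (−0.38), ITGAM (−0.22) and MPO (−0.15) lay below 0. The part of such marker changes in the values of the chemokine genes was not tested. In bulk RNA, fewer cells of a type and less RNA per cell cannot be told apart. With 4 arrays, precision is limited by their number.

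The chemokine system changed in few places with DZNep. The CC ligand CCL5 fell 2.33-fold, the CC ligand CCL3 rose 1.495-fold and the receptor CXCR4 rose 1.39-fold, while 55 of the 58 members did not pass the test. Called means an adjusted p under 0.05 in limma, fitted over all genes with Benjamini-Hochberg adjustment over all of them. By that rule 2 members were higher (3.45% of 58, against 3.62% of all genes) and 1 was lower (1.72%, against 6.68%). In either direction 5.17% of members were called, against 10.3% of all genes, so the share of called members was no higher than the background. The members that were not called had limma adjusted p between 0.0736 and 0.993, and 6 of them had an unadjusted p under 0.05. An exact permutation test of 1 gene with 2 arrays against 2 cannot give a two-sided p under 0.333, so a call here depends on the variance that limma shares among genes.

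CCL5, also named RANTES, draws T cells and monocytes to inflamed tissue. Its log2 intensity was 8.35 and 8.48 on the DZNep arrays, against 9.71 and 9.55 on the DMSO arrays. Both DZNep arrays lay more than 1 log2 unit below both DMSO arrays, and the gap was far wider than that between replicates. The means were 8.41 ± 0.09 with DZNep and 9.63 ± 0.11 with DMSO (SD, n = 2 arrays each), and the log2 fold change was −1.22 (limma, SE 0.10, adjusted p = 0.000218). Its size lay between 1.14 and 1.30 whichever array was left out, and the call held each time. A fit without 1 array leaves 1 treatment with a single array, which is then assumed to vary like the other treatment, and this holds for every array left out below. CCL5 was the 1 member that also passed a test against a change of 1.5-fold (limma treat, adjusted p = 0.0198).

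CCL3, also named MIP-1alpha, is released by activated monocytes and macrophages. Its log2 intensity was 8.07 and 7.86 on the DZNep arrays, against 7.25 and 7.52 on the DMSO arrays. The groups did not overlap, though the replicates of each treatment were 0.2 to 0.3 log2 units apart. CCL3 averaged 7.97 ± 0.15 with DZNep and 7.39 ± 0.19 with DMSO (SD, n = 2 arrays each), a difference of 0.58 log2 units (limma, SE 0.12, adjusted p = 0.0162). The call ended when DZNep replicate 1 was left out (0.47, with a limma adjusted p of 0.0762), when DMSO replicate 1 was left out (0.45, 0.0685), and when every probe set on the array was tested (limma adjusted p = 0.0551). CCL3 and CCL5 lie on the same chromosome, 17, with 14 members on it. They are the 2 of those 14 that passed the test (14.3%, against 10.3% of all genes), in opposite directions.

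CXCR4, the receptor for CXCL12, was the brightest member, at the 98.8 percentile of all genes. It read 11.34 and 11.33 on the DZNep arrays, against 10.86 and 10.87 on the DMSO arrays. The replicates of each treatment differed by under 0.02 log2 units, much less than the gap between treatments. The log2 fold change was 0.47 (limma, SE 0.09, adjusted p = 0.012). Leaving out DZNep replicate 1 gave 0.46 with a limma adjusted p of 0.0874, and leaving out DZNep replicate 2 gave 0.48 with one of 0.0677, so the call ended while the value stayed near. CXCL12, its stromal ligand, was dim, with 5.60 and 5.80 on the DZNep arrays and 5.56 and 5.62 on the DMSO arrays (log2 fold change 0.11). ACKR3, the atypical receptor that takes up CXCL12, had a log2 fold change of 0.01 and a sign that changed with the processing.

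**Figure D1:**
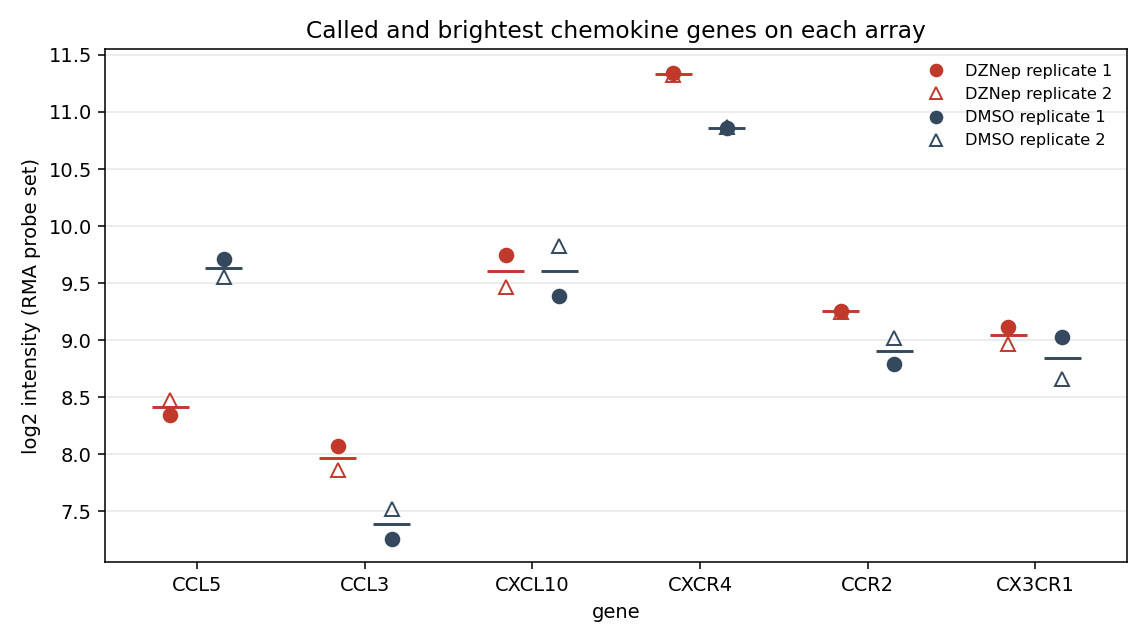
Log2 intensity of the 3 called members and the brightest others, with 1 point for each array and a bar at the mean of each treatment. DZNep points lie below DMSO points for CCL5, above them for CCL3, CXCR4 and CCR2, and among them for CXCL10 and CX3CR1.

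The promoter windows of the members that rose and of the brightest ligand, CXCL10, are shown so that their sequence features can be set beside those of all promoters. CCL5 has no window here. Windows run from 250 bases before to 50 bases after the most upstream RefSeq start (GRCh38.p14) and are printed 5′ to 3′ on the gene's strand. The CXCR4 window is chr2:136118100-136118399 (minus strand), that of CCL3 is chr17:36090094-36090393 (minus strand) and that of CXCL10 is chr4:76023448-76023747 (minus strand). Capitals mark matches to any of 4 motifs: the kappaB consensus, which NF-kappaB binds; the IRF core, which is GAAA, any 2 bases and GAAA again and is read by interferon regulatory factors; TGATGNAA, the element of ATF4 and C/EBP dimers; and TATAAA. The first 3 were searched on both strands and TATAAA on the gene's strand, and matches did not overlap here.
CXCR4: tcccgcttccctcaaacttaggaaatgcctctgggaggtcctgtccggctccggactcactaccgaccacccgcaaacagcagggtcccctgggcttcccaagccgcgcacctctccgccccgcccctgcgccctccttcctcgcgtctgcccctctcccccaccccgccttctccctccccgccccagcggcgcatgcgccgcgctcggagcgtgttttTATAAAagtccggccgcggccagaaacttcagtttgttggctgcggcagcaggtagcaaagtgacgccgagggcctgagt
CCL3: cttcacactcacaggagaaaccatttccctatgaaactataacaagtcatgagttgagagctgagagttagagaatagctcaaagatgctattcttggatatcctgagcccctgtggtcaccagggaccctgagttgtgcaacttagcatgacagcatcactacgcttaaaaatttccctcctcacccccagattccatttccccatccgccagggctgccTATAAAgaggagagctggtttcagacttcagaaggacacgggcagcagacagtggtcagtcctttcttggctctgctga
CXCL10: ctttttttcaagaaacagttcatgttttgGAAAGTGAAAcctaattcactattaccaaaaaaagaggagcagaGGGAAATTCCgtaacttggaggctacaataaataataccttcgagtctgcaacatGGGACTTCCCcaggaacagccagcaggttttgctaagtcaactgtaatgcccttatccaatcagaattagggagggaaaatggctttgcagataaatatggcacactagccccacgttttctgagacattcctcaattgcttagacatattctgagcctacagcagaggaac

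The windows of CXCR4 and CCL3 each held TATAAA, beginning 30 and 29 bases before the start, and no match to the other 3 motifs. That of CXCL10 held the kappaB consensus at 177 and 122 bases before the start and the IRF core at 221 bases before it. CXCR4 had 27 CpG dinucleotides in its window, and CCL3 and CXCL10 had 3 each. RefSeq windows were matched for 41 of the 58 members and for 27303 genes in all. Members had a median of 4 CpG a window, against 13 over all 27303 genes with a window. Of members with a window 14.6% held 10 or more, against 55.9% of those genes, which were not limited to the genes measured. The kappaB consensus was in 37.0% of 27 ligand windows, in 7.14% of 14 receptor windows and in 10.8% of all windows. TATAAA was in 40.7% of ligand windows, 7.14% of receptor windows and 7.73% of all windows. The IRF core was in 9.76% of member windows and 3.66% of all, and TGATGNAA in 4.88% of member windows and 3.67% of all. These matches describe letters only and show no binding.

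The ligands beside CCL5 and CCL3 showed no called change. CXCL10, an interferon-induced attractant of T cells, read 9.75 and 9.47 on the DZNep arrays, against 9.38 and 9.82 on the DMSO arrays. The replicates of either treatment lay further apart than the treatment means, and the log2 fold change was 0.00 with a 95% interval of −0.34 to 0.35. CXCL8, also named interleukin 8, which attracts neutrophils, read 8.30 and 8.001 on the DZNep arrays and 8.16 and 7.69 on the DMSO arrays. The groups overlapped, and its difference of 0.23 log2 units (limma, SE 0.16, adjusted p = 0.487) ranged from −0.01 to 0.46 when single arrays were left out. Among the members, which the rule takes by symbol, the remaining neutrophil attractants of the CXC class ranged from −0.18 for CXCL6 to 0.21 for CXCL3. CXCL1 lay at 0.10, CXCL5 at 0.18 and CXCL2 at −0.04, and none of the 5 was called. CCL20, which attracts cells through CCR6, had the most negative value after CCL5, at −0.31 (limma, SE 0.16, adjusted p = 0.301). It read 6.21 and 5.96 on the DZNep arrays and 6.65 and 6.15 on the DMSO arrays, which overlapped, and it was called lower when DMSO replicate 2 was left out (−0.57, limma adjusted p = 0.0344). CXCL17, a mucosal ligand, had the highest value after CCL3, at 0.29 (limma, SE 0.10, adjusted p = 0.0967). It read 6.13 and 6.13 on the DZNep arrays and 5.77 and 5.90 on the DMSO arrays without overlap, and it was called without DMSO replicate 2 (0.36, limma adjusted p = 0.047). The monocyte attractants CCL2, CCL7 and CCL8, ligands of CCR2, lay at −0.03, 0.07 and −0.07 in log2 fold change, and the homeostatic lymphoid ligands CCL19, CCL21 and CXCL13 at −0.04, 0.01 and 0.22. CXCL13 was called with 16 subtracted from every intensity before log2 (0.47, limma adjusted p = 0.0458). The T cell attractants CXCL9 and CXCL11, which share CXCR3 with CXCL10, lay at 0.14 and 0.05. XCL1 and XCL2, near-identical ligands of the dendritic cell receptor XCR1, lay at 0.28 and 0.26, and their arrays overlapped. XCL2 was called without DZNep replicate 1 (0.52, limma adjusted p = 0.0401) and XCL1 without DZNep replicate 2 (0.50, limma adjusted p = 0.0494). The CCR4 ligands CCL17 and CCL22 lay at 0.12 and 0.13, and CCL28, a mucosal ligand of CCR10, at −0.17. The eosinophil attractants CCL11, CCL24 and CCL26 lay at 0.06, 0.14 and −0.05. The remaining ligands CCL1, CCL16, CCL18, CCL23, CCL25, CXCL14 and CX3CL1 lay between −0.05 and 0.17.

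Probe sets shared with near-identical gene copies gave a second view of CCL3 and CCL4. The array has 8 chemokine probe sets with several symbols, which the rule left out. The 3 that name CCL3 with its copies CCL3L1 and CCL3L3 read 8.97 and 8.93 on the DZNep arrays, against 7.85 to 7.86 on DMSO replicate 1 and 8.44 on DMSO replicate 2. Their log2 fold changes were 0.80 to 0.81 with limma adjusted p of 0.062 to 0.0628 over all probe sets, and they were not called. These 3 probe sets were nearly equal on every array and so do not count as separate measurements. CCL4, also named MIP-1beta, lies next to CCL3 among the members on chromosome 17 and is secreted by the same cells. Its own probe set was dim, with 5.78 and 5.86 on the DZNep arrays and 5.61 and 5.55 on the DMSO arrays, 0.24 log2 units higher with DZNep (limma, SE 0.10, adjusted p = 0.162). The 3 probe sets that name CCL4 with CCL4L1 and CCL4L2 had log2 fold changes of 0.28, 0.43 and 0.43, with limma adjusted p of 0.256, 0.0793 and 0.0815 over all probe sets. The last pair of these also differed by under 0.01 log2 units on every array. Both DZNep arrays lay above both DMSO arrays in these shared probe sets, as they did for 25.9% of all genes. The signal of such probes cannot be assigned to 1 copy, so the split between CCL3 and CCL3L genes and between CCL4 and CCL4L genes is uncertain. The probe sets that name CCL15 with CCL14, and CCL27 with another gene, had log2 fold changes of −0.02 and 0.05.

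**Figure D2:**
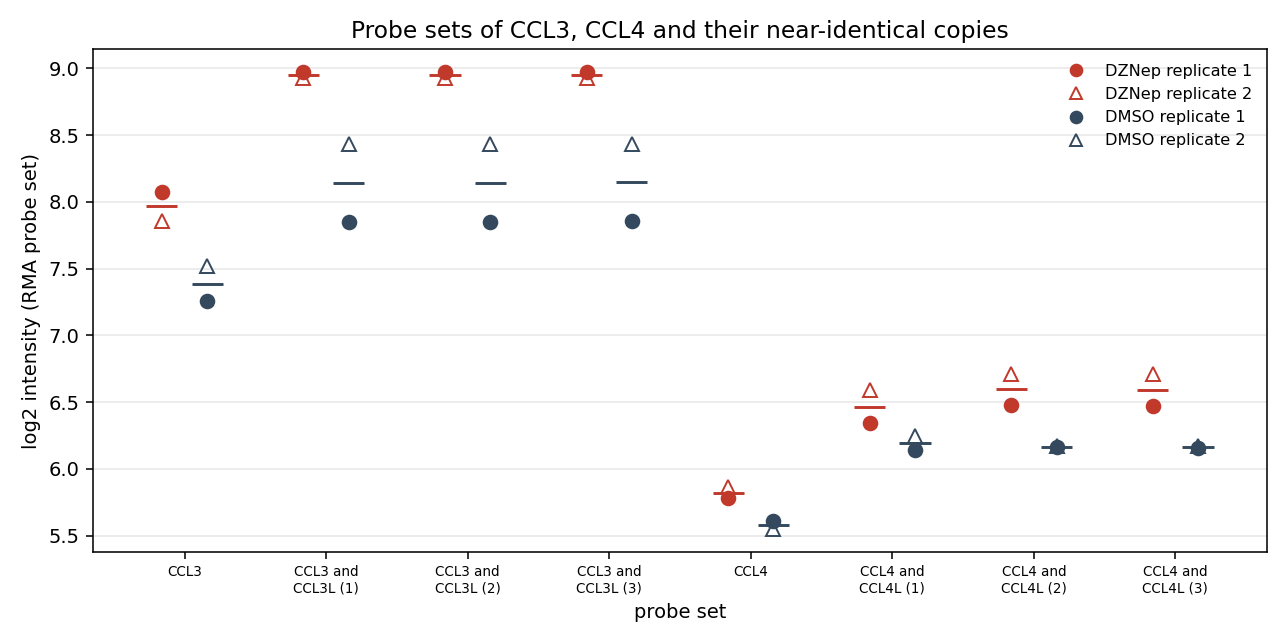
Log2 intensity of the CCL3 and CCL4 probe sets and of the probe sets they share with CCL3L and CCL4L copies, with 1 point for each array and a bar at the mean of each treatment. DZNep points lie above DMSO points in every probe set shown, with DMSO replicate 2 above DMSO replicate 1 in the shared CCL3 sets.

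Among receptors of monocytes, CCR2 was the nearest to a call after CXCR4. CCR2, the receptor for CCL2, read 9.26 and 9.25 on the DZNep arrays, against 8.79 and 9.02 on the DMSO arrays. The groups did not overlap, and the spread lay between the DMSO arrays. Its log2 fold change was 0.35 with a 95% interval of 0.11 to 0.59 (limma, SE 0.11, adjusted p = 0.0736). The other CCR2 probe set read 8.995 and 9.09 on the DZNep arrays, against 8.57 and 8.63 on the DMSO arrays, 0.44 log2 units higher with DZNep (limma, SE 0.09, adjusted p = 0.0435 over all probe sets). CCR2 was called when its probe sets were averaged (0.40, limma adjusted p = 0.0332), with an intensity trend in the variance (0.0238), with a crossed replicate block chosen after seeing the data (0.0329), with the dimmest 50% of genes removed (0.0311), and when DMSO replicate 2 was left out (0.46, limma adjusted p = 0.0234). CX3CR1, the receptor for membrane-bound fractalkine, read 9.12 and 8.96 on the DZNep arrays and 9.03 and 8.66 on the DMSO arrays. Those overlapped, and its log2 fold change was 0.19 (limma, SE 0.13, adjusted p = 0.465), or 0.38 without DMSO replicate 1 and 0.01 without DMSO replicate 2. CCR1, a receptor for both CCL3 and CCL5, had 8.11 and 8.17 on the DZNep arrays and 8.49 and 8.18 on the DMSO arrays, a difference of −0.19 log2 units (limma, SE 0.12, adjusted p = 0.399). Its groups were separated by under 0.02 log2 units.

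Receptors of lymphocytes and neutrophils were mostly dim, and none was called. CXCR3, the receptor for CXCL9, CXCL10 and CXCL11, read 7.50 and 7.71 on the DZNep arrays and 7.20 and 7.45 on the DMSO arrays. The groups did not overlap, by a margin smaller than the gap between replicates, and the log2 fold change was 0.28 (limma, SE 0.12, adjusted p = 0.213). CXCR2, a neutrophil receptor for CXCL8, had 6.93 and 6.83 on the DZNep arrays and 6.72 and 6.47 on the DMSO arrays, a difference of 0.28 log2 units (limma, SE 0.11, adjusted p = 0.16). CXCR1, which shares CXCL8 with it, lay at 0.08. Receptors of T and B cell homing had small values, with CCR7 at 0.08, CXCR5 at 0.11, CCR4 at 0.18, CCR6 at −0.05, CCR8 at 0.16 and CCR9 at 0.05. CCR10, a bright member, lay at 0.08 with the largest SE of all members (limma, 0.18). Its value ranged from −0.20 to 0.37 when single arrays were left out. XCR1 had 0.13. CXCR6, the receptor for CXCL16, had −0.18, and CXCL16 itself had 0.06. The 5 atypical receptors ranged from −0.09 for ACKR5 to 0.19 for ACKR2, a decoy for inflammatory CC ligands. For ACKR4 the brighter probe set gave −0.08 and the dimmer one 0.23, so its probe sets differed in sign.

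**Figure D3:**
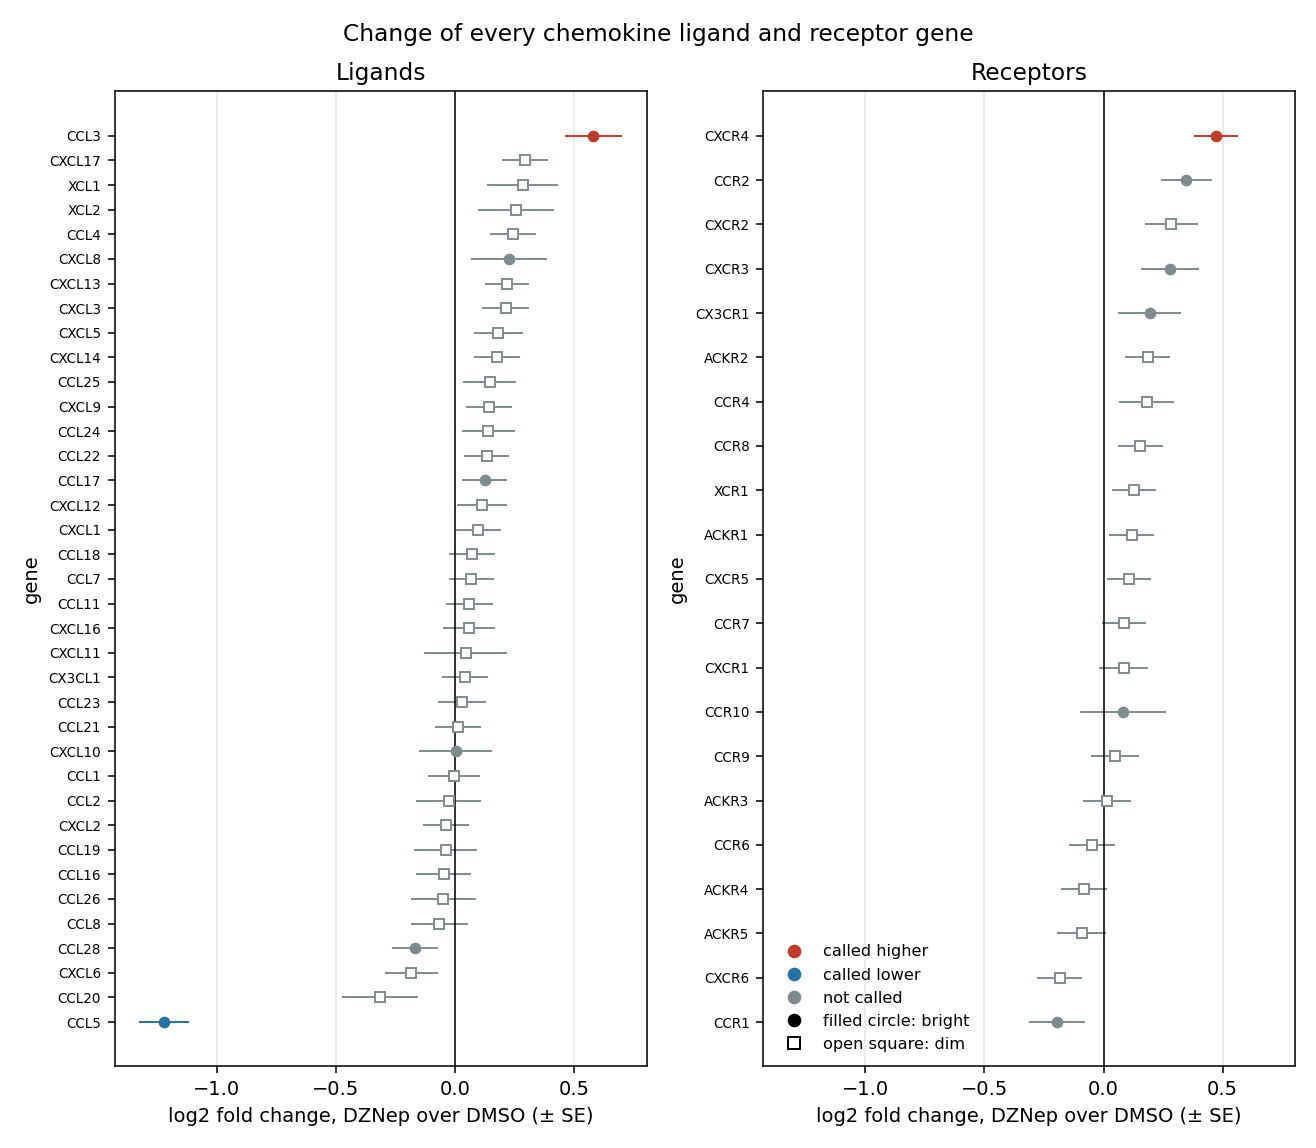
Log2 fold change of DZNep over DMSO (x axis, bars are the standard error) for each of the 37 ligands and 21 receptors (y axis), with filled circles for bright and open squares for dim members. CCL5 stands apart at −1.22, and the other members lie between −0.31 and 0.58.

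Ligands and receptors had the following values as groups, and the difference between them was not tested. The median log2 fold change was 0.07 over ligands and 0.11 over receptors, against 0.02 over all genes. Of the ligands 1 was called higher and 1 lower, and of the receptors 1 was called higher. Both DZNep arrays lay above or below both DMSO arrays for 16 of 37 ligands (43.2%) and 13 of 21 receptors (61.9%), against 49.7% of all genes. By direction, 23 of the 58 members were separated upward (39.7%, against 25.9% of all genes) and 6 downward (10.3%, against 23.9%). These shares were not matched for brightness, and 46 of the 58 members were dim by the split given below. Of those 46, 18 were separated upward and 3 downward, against 2072 and 1193 of all 9188 dim genes. Of the 12 bright members, 5 were separated upward and 3 downward, against 2681 and 3195 of all 9189 bright genes. The log2 fold change was above 0 for 26 ligands and 16 receptors, 72.4% of members, against 55.4% of all genes. It was above 0 for 71.7% of dim members, against 61.8% of all dim genes, and for 75% of bright members, against 49.1% of all bright genes. Without DMSO replicate 1 the shares were 58.6% of members and 47.4% of all genes, and without DMSO replicate 2 they were 82.8% and 57.9%. With each array centred on its median they were 65.5% and 47%. Quantile and cyclic loess normalization both gave 67.2% of members, against 51.3% and 49.2% of all genes. The median deviation of the members from their own means was 0.06 and 0.03 on the DZNep arrays, against −0.09 and −0.02 on the DMSO arrays. DMSO replicate 1, the lowest, was also the array with the lowest median over dim genes in general. Its part in the small upward values was not tested beyond these values.

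Calls fell among the bright members. The split was set at 7.46, the median over all genes of the mean log2 intensity, which left 12 bright and 46 dim members. The nearest to it were CXCR3 (7.46) and CCL28 (7.48) above, and CX3CL1 (7.20) and CCR7 (7.16) below. Brightness also depends on the probes, so a dim probe set does not show a low transcript. All 3 calls were of bright members, 25% of 12, against 16.8% of all bright genes. None of the 46 dim members was called by limma (4 of them had an unadjusted p under 0.05), against 3.75% of all dim genes. Dim members ranged from −0.31 to 0.29 in log2 fold change and bright members from −1.22 to 0.58. The lowest deposited intensities were near 18 on every array, and whether a constant is part of them is not given in the sources used here, so folds of dim genes may be understated. With 16 subtracted before log2, dim members ranged from −0.40 to 0.47, with CXCL13 the highest and called. The dim range also widened to 0.52 without DZNep replicate 1 (XCL2), to 0.50 without DZNep replicate 2 (XCL1) and to −0.57 without DMSO replicate 2 (CCL20). The median was 0.08 over dim members and 0.16 over bright ones, against 0.03 over all dim genes and −0.01 over all bright genes. Under quantile or cyclic loess normalization the median of dim members was 0.04. Among the 46 dim members, the replicates of DZNep were 0.2 log2 units or more apart for 7 and those of DMSO for 14. Among the 12 bright members they were that far apart for 5 and 8, a larger share in both treatments.

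**Figure D4:**
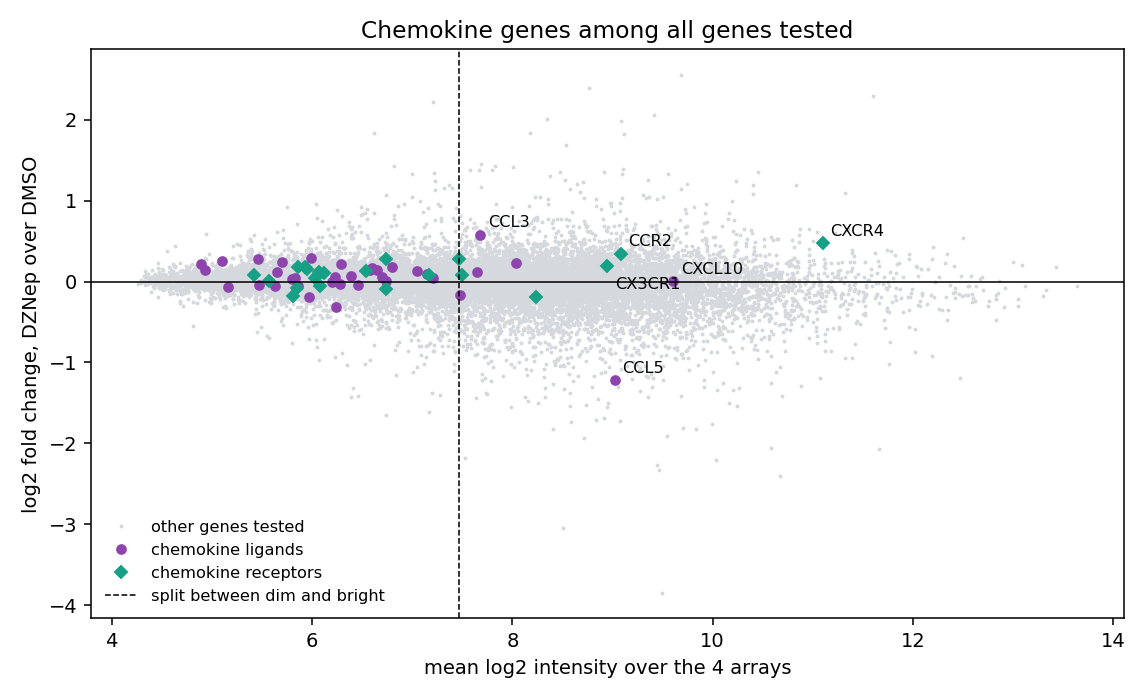
Log2 fold change of DZNep over DMSO (y axis) against the mean log2 intensity over the 4 arrays (x axis), with grey points for all other genes tested. The dashed line at 7.46 divides dim from bright members, and the 3 called ones, CCL5, CCL3 and CXCR4, lie to its right.

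Genes that act with the chemokine system were set beside its members in lists drawn up with earlier results of these data known. Their shares of called genes stand against 10.3% of all genes, or 16.8% of bright and 3.75% of dim genes. The shares were not matched for brightness. The median of the mean log2 intensity was 6.25 over the first list below and 8.72 over the G protein list. It was 8.69 over the desensitisation list and 9.70 over the migration list. Of 14 related receptors, ligands and processing enzymes measured, 2 fell and none rose by limma, with 2 higher and 2 lower at an unadjusted p under 0.05, 14.3% called in all, and the median log2 fold change was 0.03. They were DPP4, the peptidase that trims chemokines at their amino end, with 5.59 and 5.59 on the DZNep arrays against 6.81 and 6.30 on the DMSO arrays (log2 fold change −0.96, limma, SE 0.15, adjusted p = 0.00405), and the receptor GPR35. GPR35 had −0.50 and lost its call without DZNep replicate 1 (−0.46) or DMSO replicate 1 (−0.30). Among 21 G protein signalling genes, 2 rose, GNG7 at 0.47 and GNA15 at 0.44, and 1 fell, GNAI3, an inhibitory alpha subunit, at −0.46 (14.3% called), with a median of 0.07. Each of these calls ended in some reduced set of arrays: GNG7 without DZNep replicate 2 (0.37) or DMSO replicate 2 (0.42), GNA15 without DZNep replicate 1 (0.41) or 2 (0.46), and GNAI3 without DZNep replicate 1 (−0.44) or 2 (−0.49) or DMSO replicate 1 (−0.39). Of 14 genes of receptor desensitisation, 2 rose and 1 fell (21.4% called), with a median of 0.07. RGS2, which speeds the shutdown of G proteins, read 9.38 and 9.26 on the DZNep arrays, against 8.28 and 7.90 on the DMSO arrays (1.23, limma, SE 0.13, adjusted p = 0.000567). Its relative RGS1 moved the other way, with 6.92 and 7.09 on the DZNep arrays against 7.91 and 7.54 on the DMSO arrays (−0.72, limma, SE 0.13, adjusted p = 0.00877). The arrestin ARRB1 rose by 0.38, a call that ended without DZNep replicate 1 (0.41) or 2 (0.36) or DMSO replicate 2 (0.31). Of 29 genes of the migration machinery, with a median of 0.01 and 6.9% called, 1 fell, the integrin chain ITGB1 at −0.53, and 1 rose, PREX1, a Rac exchange factor, at 0.53, which lost its call without DZNep replicate 2 (0.49) or DMSO replicate 2 (0.36).

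Lists of genes that act upstream of chemokines or beside them in inflammation were counted in the same way, again without matching for brightness. The median of the mean log2 intensity was 8.21 over the NF-kappaB list and 7.12 over the cytokines and mediators. It was 7.27 over the interferon list and 7.74 over the sensors, with the split between dim and bright genes at 7.46. Against the same 10.3% of all genes, 13.8% of 29 NF-kappaB regulators were called. Of these, 4 rose and none fell by limma (7 higher and 1 lower at an unadjusted p under 0.05), and the median log2 fold change was 0.18, against 0.02 over all genes. NFKBIA, the inhibitor that NF-kappaB itself induces, read 9.96 and 9.99 on the DZNep arrays, against 8.70 and 8.75 on the DMSO arrays (1.26, limma, SE 0.09, adjusted p = 0.000102). The others were CYLD at 0.51, BCL3 at 0.44 and MYD88 at 0.39. CYLD lost its call without DZNep replicate 2 (0.45) or DMSO replicate 2 (0.33), BCL3 without DZNep replicate 1 (0.35) or DMSO replicate 1 (0.36), and MYD88 without DZNep replicate 1 (0.35) or 2 (0.44) or DMSO replicate 1 (0.36). Of 21 inflammatory cytokines and mediators, 5 rose and 3 fell (38.1% called), with a median of 0.15. TNF had 9.45 and 9.26 on the DZNep arrays, against 7.23 and 7.45 on the DMSO arrays (2.02, limma, SE 0.115, adjusted p = 3.21e-05), and PTGS2, the inducible cyclooxygenase, rose by 0.68. IL18 fell by 0.86 and VEGFA by 0.63 on the log2 scale, the last without a call when DMSO replicate 1 was left out (−0.42). Of 30 interferon response genes, 2 rose, the guanylate-binding protein GBP2 at 1.38 and IFIT2 at 0.77, and 1 fell, USP18, at −0.38 (10% called), with a median of 0.13. USP18 lost its call without DZNep replicate 1 (−0.43) or 2 (−0.33) or DMSO replicate 1 (−0.35). Of 22 sensors, 6 rose and 1 fell (31.8% called), with a median of 0.11. They included the Toll-like receptors TLR1 at 1.14, TLR2 at 0.93 and TLR8 at 0.83, and the interleukin 1 co-receptor IL1RAP fell by 0.73 on the log2 scale. With 16 subtracted before log2, and likewise with every probe set tested, 9 of the list genes named here lost their calls (GPR35, GNG7, ARRB1, PREX1, CYLD, BCL3, MYD88, VEGFA and USP18), and with arrays centred ARRB1 (0.35) and CYLD (0.48) did. TNF differed by 2.02 log2 units between treatments on the arrays on which CXCL8 differed by 0.23 and CXCL10 by 0.00. Whether CXCL8 and TNF differ in their response was not tested.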

How the data were processed

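Per the labels' protocols, total RNA was extracted, amplified and labelled with a kit for sense targets. The authors deposited 1 linear intensity per probe set and array, which the submitters' processing notes credit to RMA without a version. Here log2 of the deposited values was used as it stood, and an alternative first subtracted 16, since the lowest values lay near 18. Of 28869 probe sets, 19310 have 1 symbol in the platform annotation, which can be old, 1752 several and 7807 none, which gave 18377 genes. Treatment was the single term of a two-sided fit with limma 3.58.1 (R 4.3.3; lmFit, then eBayes with no intensity trend), adjusted by Benjamini-Hochberg over all genes, with 2 residual and 7.18 prior degrees of freedom. The fit was tested on data simulated from its own variances with independent normal noise. Such data meet its assumptions by design, so that test does not bear on the calls made here. The naming rule took, with values of every array, the called members, the 5 brightest and any other with an absolute log2 fold change of at least 0.5, and up to 4 called genes of each list. Array values of other members (CXCL8, CCL20, CXCL17, CCL4, CXCL12, CCR1, CXCR2, CXCR3) were added after their values were seen. The members and lists were chosen with earlier results of these data known. Promoter windows are RefSeq's (GRCh38.p14). Alternatives were a block for the replicate number, removal of dim genes, other normalizations and variance models, averaged probe sets, a subtracted constant, a fold threshold and leaving out each array.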

Additional observations from a re-analysis of the deposited data

How the results depend on the processing

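The call of CCL5 held under every alternative run. The fit of every probe set was read at 1 probe set a gene, the same one as in the main fit. Its counts therefore leave out the other CCR2 probe set (limma adjusted p = 0.0435 over all probe sets). The counts of members called higher and lower, 2 and 1, were 0 and 1 against a 1.5-fold change (limma treat) and 1 and 1 with every probe set tested, and they ranged from 1 to 4 and from 1 to 2 when an array was left out. Over all genes the counts were 37 higher and 73 lower against a 1.5-fold change, 388 and 779 with every probe set tested, and 336 to 776 higher and 734 to 1662 lower without 1 array. The median log2 fold change over all members was 0.159 without the dimmest 50% of genes, where 12 members were left, and that of receptors 0.161 and 0.236 without the dimmest 25% and 50%. Under quantile and cyclic loess normalization the median was 0.064 and 0.063 over receptors and 0.037 under both over dim members. Without 1 array it was 0.057 to 0.122 over ligands and 0.049 to 0.119 over dim members. The value of CXCL10, 0.004, changed sign with arrays centred (−0.029), without DZNep replicate 1 (−0.138) and without DMSO replicate 1 (−0.217), and reached 0.224 without DMSO replicate 2. Of the 58 members, 22 changed sign in at least 1 of 13 settings. The replicate blocks and the removal of dim genes leave a gene's own fold change as it was, so no sign could change there. Dim members had a value in 11 or 12 of the settings. Same-numbered samples of the 2 treatments had a weak tendency to deviate in opposite directions (correlation −0.219 over genes). With 2 arrays a treatment, crossed numbers give the same size with the other sign (0.219) by construction. The labels do not say that a number marks a shared culture. With the replicate block 754 genes were higher and 1353 lower, against 665 and 1227 without it, and the counts of members were 2 and 1 in both fits. A crossed block, chosen after seeing the data, as was the test of every probe set, gave 1034 genes higher and 1690 lower, and 3 members higher and 1 lower. No dim members remained without the dimmest 50% of genes. The cause of these shifts was not tested.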
